A study of Mus musculus with 11 samples.

Results

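Proteasome and immunoproteasome genes were followed in mouse CD8+ T cells before and after stimulation. Members were the protein-coding genes whose symbol begins with Psm, a letter from a to g and a digit, which gave 50 of the 55414 genes in the table. In all, 54 symbols matched and 4 pseudogenes were left out. The rule uses names alone and no measured value. All cells carried the OT-I genotype, a transgenic T cell receptor that recognises the N4 peptide of ovalbumin, so nearly every CD8+ T cell can respond to the same antigen. Untreated cells gave 4 naive libraries. Cells that received N4 with the solvent DMSO gave 4 stimulated libraries, and cells that received N4 together with Torin gave 3 Torin libraries. Torin inhibits mTOR, a kinase that drives growth and protein synthesis. The time was 12 h in all 3 groups. Libraries carry the numbers 1 to 4, with 1, 3 and 4 in the Torin group. The labels do not say whether the libraries came from separate animals or cultures, so p-values measure the spread between these libraries, which may be technical. The labels used here give neither the age of the mice nor what the numbers share.

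The proteasome degrades ubiquitin-tagged proteins. Its barrel, the 20S core, has outer rings of alpha subunits and inner rings of beta subunits, and 3 of the beta subunits cut proteins. The 19S cap recognises, unfolds and feeds in substrates with ATP, and other activators can take its place. In lymphocytes and in cells exposed to interferon gamma, the catalytic subunits encoded by Psmb5, Psmb6 and Psmb7 can be replaced by those encoded by Psmb8, Psmb9 and Psmb10. The resulting immunoproteasome produces peptides suited to MHC class I molecules.

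By role, the 50 members comprised 7 alpha subunit genes, 4 structural beta genes, 3 constitutive catalytic genes and 3 immunoproteasome catalytic genes. A further 6 encode ATPases and 11 non-ATPase subunits of the 19S cap, 3 encode chaperones of the 19S base and 4 encode chaperones of the 20S core. The others were 5 activator genes, Psmf1 (the regulator PI31), 2 tissue-restricted core genes (Psma8 of testis and Psmb11 of thymic epithelium), and Psmc3ip. Psmc3ip encodes a recombination factor that shares only its name with the family and is described apart. All 50 members passed the filter on low counts, but Psma8 and Psmb11 stayed below 1 CPM (counts scaled to a common effective library size) in every library.

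The promoters of constitutive and immunoproteasome catalytic genes are shown because these 2 sets moved in opposite directions on stimulation. Each is the RefSeq window on GRCm38.p6 of 300 bases, 250 before and 50 from the annotated start, written 5′ to 3′ on the strand of the gene. Capitals mark matches, on either strand, to any of 5 motifs: TGACNNNGC (antioxidant response element), the CCAAT box, CACGTG (E-box), the interferon-stimulated response element (GAAA repeated after 2 other bases) and TTCNNNGAA (gamma-activated site). Each of these 5 windows held 1 match, so no matches overlapped in them. Psmb5 lies at chr14:54617946-54618245, minus strand, and Psmb6 at chr11:70525107-70525406, plus strand. Psmb8 lies at chr17:34197945-34198244, plus strand, Psmb9 at chr17:34187281-34187580, minus strand, and Psmb10 at chr8:105938343-105938642, minus strand.
Psmb5: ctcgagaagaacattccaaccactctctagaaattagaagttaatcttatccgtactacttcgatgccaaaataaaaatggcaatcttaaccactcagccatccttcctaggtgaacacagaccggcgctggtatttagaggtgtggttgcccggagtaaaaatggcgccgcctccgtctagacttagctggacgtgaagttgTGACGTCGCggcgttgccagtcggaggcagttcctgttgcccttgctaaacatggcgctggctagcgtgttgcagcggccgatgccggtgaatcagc
Psmb6: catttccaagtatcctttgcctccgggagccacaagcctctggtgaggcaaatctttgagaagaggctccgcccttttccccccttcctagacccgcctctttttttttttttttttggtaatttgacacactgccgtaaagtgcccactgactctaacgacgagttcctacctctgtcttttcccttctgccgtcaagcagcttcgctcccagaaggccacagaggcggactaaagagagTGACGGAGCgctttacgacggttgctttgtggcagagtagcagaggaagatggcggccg
Psmb8: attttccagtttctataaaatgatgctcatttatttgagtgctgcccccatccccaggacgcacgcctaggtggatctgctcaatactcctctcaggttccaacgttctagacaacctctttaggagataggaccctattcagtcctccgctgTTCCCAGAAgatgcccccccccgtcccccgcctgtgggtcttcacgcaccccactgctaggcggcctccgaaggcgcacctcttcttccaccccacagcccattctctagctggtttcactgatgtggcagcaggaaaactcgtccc
Psmb9: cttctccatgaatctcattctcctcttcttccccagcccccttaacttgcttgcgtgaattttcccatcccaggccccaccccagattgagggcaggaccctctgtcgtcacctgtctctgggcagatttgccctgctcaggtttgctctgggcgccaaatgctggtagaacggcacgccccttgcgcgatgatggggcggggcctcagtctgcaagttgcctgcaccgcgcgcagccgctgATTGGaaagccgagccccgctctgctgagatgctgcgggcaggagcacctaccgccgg
Psmb10: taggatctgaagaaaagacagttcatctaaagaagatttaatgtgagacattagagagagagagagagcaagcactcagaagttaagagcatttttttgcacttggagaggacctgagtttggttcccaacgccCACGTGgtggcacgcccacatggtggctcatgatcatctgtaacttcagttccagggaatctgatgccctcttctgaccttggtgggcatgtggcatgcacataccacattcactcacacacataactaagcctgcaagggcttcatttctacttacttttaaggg

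The match was to the antioxidant response element in Psmb5 and Psmb6, to the gamma-activated site in Psmb8, to CCAAT in Psmb9 and to the E-box in Psmb10. The start that RefSeq gives lay 405 bases downstream of the first base of Psmb8-201 in GENCODE, and 434 bases downstream of that of Psmb9-204. These 2 windows therefore cover other sequence than one placed at the GENCODE start. Windows were at hand for 42 members and 27025 genes. The antioxidant response element was in 14.3% of members and 14.0% of all genes with a window, CCAAT in 35.7% and 41.1%, and the E-box in 9.52% and 8.09%. The interferon-stimulated response element was in 11.9% of members (5 genes: Psmb3, Psmd4, Psmd9, Psme1 and Psmg4) and 3.99% of all, and the gamma-activated site in 7.14% and 9.55%. A match is a description of these letters and not a mapped binding site. No window was at hand for Psma8, Psmb1, Psmb2, Psmb7, Psmc3, Psmd3, Psmd7 and Psmg2.

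Stimulation with N4 was accompanied by higher levels of most proteasome genes and lower levels of all 3 immunoproteasome catalytic genes. Past an adjusted p of 0.05 (edgeR quasi-likelihood test, Benjamini-Hochberg over 22238 genes), 40 members were higher and 3 were lower in stimulated than in naive libraries, and 7 did not pass. Of all genes tested, 39.5% passed, 19.2% higher and 20.2% lower. The median log2 change was 1.23 over members and -0.22 over all genes tested. The lowest stimulated library lay above the highest naive library for 40 members, and the opposite held for 3. Over all genes these shares were 19.8% and 21.7%. Scaling by library totals alone moved the median of all genes to -0.71 and left 26 members called higher, all of them among the 40, where 11.7% of all genes were called higher. It also turned the sign of 5 members, of which Psmb1 was the only called gene. In bulk RNA, fewer cells of a type and less RNA per cell cannot be told apart.

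Libraries held 241865667 to 405884097 estimated counts. CD8+ T cell markers (7 genes) summed to 4675 to 5852 CPM in naive, 1933 to 2378 in stimulated and 2970 to 3232 in Torin libraries, with none at 0, and 5 of the 7 were lower on stimulation. Granulocyte markers (10 genes) summed to 8506 CPM in naive 2 and 2069 in stimulated 2, against at most 152 in the other libraries. Monocyte and macrophage markers (8 genes) summed to 2355 CPM in naive 2 and at most 249 elsewhere. B cell markers (8 genes) summed to 47394 in naive 4, 14392 in stimulated 4 and 13244 in Torin 4, against at most 366 elsewhere. Dendritic cell markers (8 genes) summed to 271 to 1532 CPM in naive, 254 to 589 in stimulated and 166 to 521 in Torin libraries, highest in naive 2 and naive 4, and 3 were lower and 1 higher on stimulation. Erythroid and platelet markers (7 genes) summed to 349 to 1072, 238 to 799 and 210.5 to 424 CPM, and 2 were lower on stimulation. At most 1 gene of each of these 5 lists was at 0 in all libraries of a group. The part of these cells in the results was not tested. Without all libraries of number 2 the log2 changes of Psmb8 and Psmb9 on stimulation were -2.02 and -1.66, and without those of number 4 they were -1.94 and -1.41, all past the threshold. That of Psmb10 was -0.46 without number 2 (adjusted p = 0.061) and -0.54 without number 4 (adjusted p = 0.028). The members called higher numbered 39 without number 2, all of the 40 but Psmb1, and were the same 40 without number 4.

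Psmb8 encodes the immunoproteasome subunit with chymotrypsin-like activity. It measured 1305, 1313, 1402 and 1348 CPM in naive 1 to 4, 359.8, 296, 324 and 318 in stimulated 1 to 4, and 186, 176 and 204 in Torin 1, 3 and 4. No group overlapped another, and every Torin library was lower than every stimulated one. On stimulation Psmb8 was 4.14-fold lower (log2 change -2.05, SE 0.11, adjusted p = 6.1e-06), in 4 of 4 numbers. With Torin it was 1.72-fold lower again than in stimulated libraries (log2 change -0.78, SE 0.12, adjusted p = 0.0075), in 3 of 3 numbers. The Torin call ended without Torin 3 (log2 change -0.73, adjusted p = 0.060). It also ended without all libraries of number 1 (-0.72, adjusted p = 0.070), number 3 (-0.73, adjusted p = 0.11) or number 4 (-0.83, adjusted p = 0.083).

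Psmb9 encodes the immunoproteasome subunit that takes the place of the caspase-like subunit encoded by Psmb6. It measured 354, 452, 489 and 479 CPM in naive 1 to 4, against 151, 164, 138 and 131 in stimulated 1 to 4. In Torin 1, 3 and 4 it measured 160.2, 142 and 146 CPM. Naive libraries lay above all others, and Torin and stimulated libraries overlapped. The fall on stimulation was 3.04-fold (log2 change -1.60, SE 0.14, adjusted p = 1.2e-05). Between Torin and stimulated libraries the log2 change was 0.03 (SE 0.14, adjusted p = 0.94).

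Psmb10 encodes the immunoproteasome subunit with trypsin-like activity. It measured 319, 287, 313 and 223 CPM in naive 1 to 4, 197, 176, 218 and 206 in stimulated 1 to 4, and 50.3, 54.4 and 56.4 in Torin 1, 3 and 4. Naive 4, the lowest naive library, lay just above stimulated 3, and the Torin libraries lay far below all others. The fall on stimulation was 1.43-fold (log2 change -0.52, SE 0.14, adjusted p = 0.011). Over the settings run, this log2 change ranged from -1.02 to -0.43. With Torin, Psmb10 was 3.71-fold lower than in stimulated libraries (log2 change -1.89, SE 0.16, adjusted p = 0.00094), in 3 of 3 numbers. The call on stimulation ended without all libraries of number 1 (log2 change -0.45, adjusted p = 0.076), number 2 (-0.46, adjusted p = 0.061) or number 3 (-0.51, adjusted p = 0.060). The Torin call held in every setting run, with an adjusted p of at most 0.042.

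**Figure D1:**
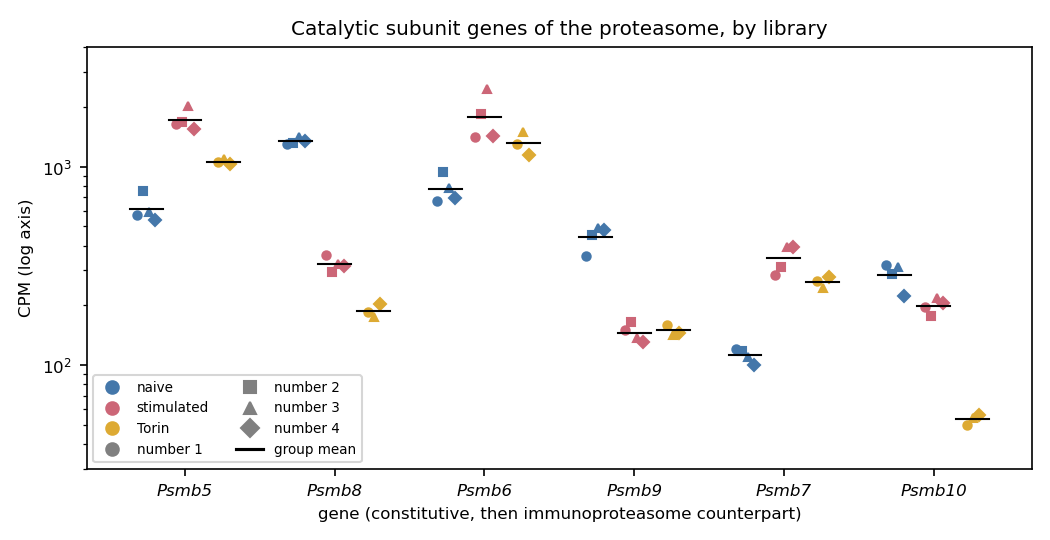
CPM (log axis) of each constitutive catalytic gene and its immunoproteasome counterpart in the 4 naive, 4 stimulated and 3 Torin libraries; symbols give the library number and lines the group mean. The 3 constitutive genes were lowest in naive libraries and the 3 immunoproteasome genes were highest there, while Psmb10 was lowest in the Torin libraries (50.3 to 56.4 CPM).

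The constitutive counterparts moved the other way on stimulation. Psmb5, with chymotrypsin-like activity, measured 569, 754, 594 and 539.8 CPM in naive 1 to 4, 1636, 1673, 2028 and 1541 in stimulated 1 to 4, and 1049, 1097 and 1036 in Torin 1, 3 and 4. The Torin libraries lay between the other groups without overlap. Psmb5 rose 2.80-fold on stimulation (log2 change 1.49, SE 0.14, adjusted p = 2.2e-05). It was 1.62-fold lower with Torin than without (log2 change -0.70, SE 0.15, adjusted p = 0.03).

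Psmb6, with caspase-like activity, measured 673, 943, 785 and 692 CPM in naive 1 to 4, 1409, 1834, 2467 and 1431 in stimulated 1 to 4, and 1302, 1498 and 1139 in Torin 1, 3 and 4. Stimulated 3 was the highest, and the Torin range reached into the stimulated range. It rose on stimulation (log2 change 1.21, SE 0.20, adjusted p = 0.00066), and its log2 change with Torin was -0.44 (adjusted p = 0.28). Psmb7, with trypsin-like activity, measured 120.4, 118, 110.4 and 101 CPM in naive 1 to 4, 285, 314, 393 and 395 in stimulated 1 to 4, and 264, 245 and 279 in Torin 1, 3 and 4. The 3 groups did not overlap. Psmb7 rose 3.09-fold on stimulation (log2 change 1.63, SE 0.14, adjusted p = 1.2e-05), and its log2 change with Torin was -0.40 (adjusted p = 0.16). DESeq2 called Psmb7 lower with Torin (-0.43, adjusted p = 0.031). Psmb7 overlaps Nek6 on the opposite strand, and the sources do not say whether counting used strand. Mean counts of Nek6 were 8399 in naive, 19546 in stimulated and 20513 in Torin libraries. Those of Psmb7 were 39084, 88375 and 83913. The part of Nek6 in the values of Psmb7 was not tested.

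The balance within each catalytic pair was taken per library from per-length levels (TPM, the deposited transcript counts divided by GENCODE lengths and scaled to 1 total in every library), so that it does not depend on library scaling. Psmb8 made up 58.0%, 50.9%, 58.7% and 60.2% of the Psmb8 and Psmb5 level in naive 1 to 4, against 11.9%, 9.78%, 8.96% and 11.02% in stimulated 1 to 4. In Torin 1, 3 and 4 it made up 9.63%, 8.31% and 10.2%. Group means were 56.9% ± 4.16 (SD, n = 4), 10.4% ± 1.32 (n = 4) and 9.38% ± 0.969 (n = 3). Psmb8 thus went from the larger to the smaller transcript of its pair. With protein-coding transcripts alone the means were 41.3%, 4.39% and 5.20%, which places Psmb8 below Psmb5 in naive libraries too.

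Psmb9 made up 23.5%, 21.9%, 26.5% and 28.7% of its pair with Psmb6 in naive 1 to 4, against 5.88%, 4.99%, 3.20% and 5.14% in stimulated 1 to 4. In Torin 1, 3 and 4 it made up 6.74%, 5.33% and 7.04%. Psmb6 was the larger transcript of this pair in every library. Psmb10 made up 78.1%, 76.6%, 78.5% and 71.8% of its pair with Psmb7 in naive 1 to 4, 58.7%, 55.1%, 48.6% and 45.4% in stimulated 1 to 4, and 24.2%, 33.5% and 29.7% in Torin 1, 3 and 4. The 3 groups did not overlap for this pair. With protein-coding transcripts alone, Psmb10 made up 80.2% ± 4.46, 27.8% ± 13.2 and 13.0% ± 5.59 (SD) in naive, stimulated and Torin libraries.

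The log2 ratio of immunoproteasome to constitutive gene differed between stimulated and naive libraries by -3.52 for Psmb8 to Psmb5, -2.77 for Psmb9 to Psmb6 and -1.58 for Psmb10 to Psmb7. Each gave an exact 2-sided permutation p of 0.0286, the smallest that 4 against 4 libraries allow, and an adjusted p of 0.0735 over 9 tests. Between Torin and stimulated libraries the differences were -0.16 (exact p = 0.286), 0.46 (exact p = 0.114) and -1.41 (exact p = 0.0571, adjusted p = 0.0735). This exact p of 0.0571 is the smallest that 4 against 3 libraries allow. None of the 9 adjusted values passed 0.05, and with these numbers of libraries no test against the Torin group could reach 0.05 unadjusted. For Psmb8 to Psmb5, the difference between Torin and stimulated libraries was 0.26 with protein-coding transcripts alone, opposite in sign.

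**Figure D2:**
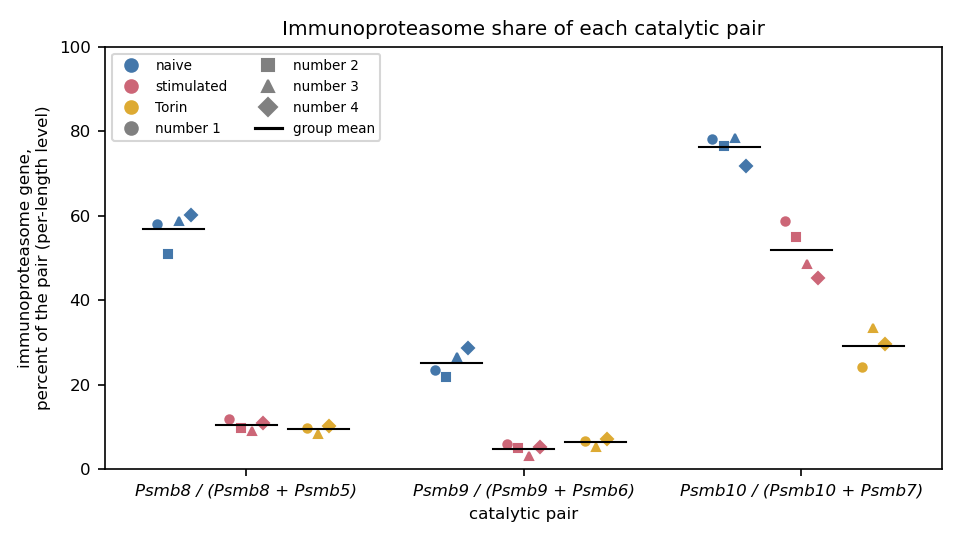
Percent of the summed per-length level of each catalytic pair that came from the immunoproteasome gene, by library; symbols give the library number and lines the group mean. The naive libraries lay at 50.9% to 60.2%, 21.9% to 28.7% and 71.8% to 78.5% for the 3 pairs, above all stimulated and Torin libraries.

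Psmb10 also changed in which transcripts carried its counts. Psmb10-201, the protein-coding transcript of 1311 nt and 8 exons, held 93.6%, 95.4%, 94.8% and 93.4% of the gene's counts in naive 1 to 4. The same transcript held 54.9%, 50.4%, 37.1% and 42.7% in stimulated 1 to 4 and 40.2%, 42.6% and 54.9% in Torin 1, 3 and 4. Stimulated and Torin libraries overlapped and lay well below naive ones. The log2 share fell on stimulation (change -1.04, SE 0.14, limma adjusted p = 0.0014), and Torin and stimulated libraries differed by 0.00 (SE 0.15, adjusted p = 1). Of 14149 transcripts in 4781 genes tested, 16.5% passed on stimulation, 0.247% with Torin against stimulated and 6.42% with Torin against naive libraries.

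The counts went instead to 3 short transcripts. Psmb10-205 (554 nt, annotated as a retained intron) held 0.607%, 0.344%, 0.331% and 0.322% in naive 1 to 4. In stimulated 1 to 4 its share was 24.6%, 30.5%, 42.2% and 36.8%. In Torin 1, 3 and 4 it held 37.4%, 33.8% and 29.1%. Its log2 share rose on stimulation by 5.93 (SE 0.23, adjusted p = 4.7e-06). Psmb10-207 (646 nt, retained intron) held at most 0.651% in naive libraries, 7.12% to 10.8% in stimulated and 7.45% to 11.1% in Torin libraries, with a log2 change of 4.47 on stimulation (adjusted p = 0.00015). Psmb10-203 (426 nt, processed transcript) held at most 0.115% in naive libraries, 5.12% to 8.99% in stimulated and 6.37% to 10.5% in Torin libraries (log2 change 5.15, adjusted p = 2.6e-05). None of the 3 is annotated as protein coding. In naive libraries Psmb10-203 measured 0.016 to 0.49 CPM of library totals, below the prior of 0.5 CPM. It reached the required mean of 1 CPM only through the stimulated and Torin libraries. Psmb10-207 measured 0.504 to 1.65 CPM in naive libraries, near the prior. The sizes of the log2 changes of Psmb10-203 and Psmb10-207 therefore depend on that prior.

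The first 100 bases of these 3 transcripts are shown because all 3 begin within intron 4 of Psmb10-201, which is 259 bases long, just before exon 5. They are from GENCODE M21 on GRCm38, chromosome 8, minus strand, written 5′ to 3′, and capitals mark bases that are not in Psmb10-201.
Psmb10-205: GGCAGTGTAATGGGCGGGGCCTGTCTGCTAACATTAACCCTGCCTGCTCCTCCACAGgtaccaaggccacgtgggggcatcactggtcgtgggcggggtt
Psmb10-207: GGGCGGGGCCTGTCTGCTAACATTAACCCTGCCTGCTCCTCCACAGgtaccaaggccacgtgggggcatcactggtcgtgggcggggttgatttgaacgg
Psmb10-203: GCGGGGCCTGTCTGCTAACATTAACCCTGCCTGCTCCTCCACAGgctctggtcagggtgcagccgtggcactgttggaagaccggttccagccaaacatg

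Psmb10-205 begins 57 bases before exon 5, Psmb10-207 46 bases before it and Psmb10-203 44 bases before it. Psmb10-205 and Psmb10-207 run on into exon 5, while Psmb10-203 joins its first bases to exon 6 and lacks exon 5. All 3 share their later exons with Psmb10-201, so the division of counts among them rests on the authors' estimate from coverage. In CPM of library totals, Psmb10-201 measured 327 ± 71.0 (SD, n = 4) in naive, 79.8 ± 18.7 (n = 4) in stimulated and 23.7 ± 5.84 (n = 3) in Torin libraries. The 3 short transcripts together measured 2.68 ± 1.08, 85.0 ± 14.1 and 25.9 ± 2.07 on the same scale. All Psmb10 transcripts together measured 254 to 431 CPM of library totals in naive, 155 to 190 in stimulated and 47.2 to 55.1 in Torin libraries. On this scale the level of Psmb10-201 thus differed more between naive and stimulated libraries than that of the whole gene did. Both kinds of transcript were lower in the Torin libraries than in the stimulated ones. An antisense gene, Gm16156, overlaps Psmb10 and had a mean of 16.3 counts or fewer in each group, against 17184 or more for Psmb10.

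**Figure D3:**
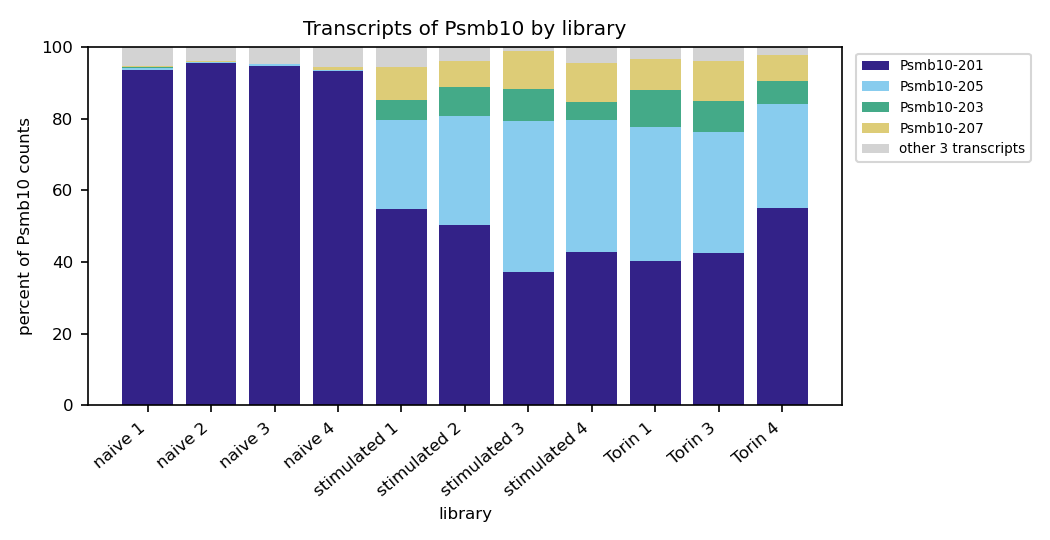
Stacked percent of Psmb10 counts held by each transcript in each library, from 0 to 100%. Psmb10-201 made up 93.4% to 95.4% in naive libraries, 37.1% to 54.9% in stimulated and 40.2% to 54.9% in Torin libraries, with Psmb10-205 as the largest of the others.

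Psmb8 and Psmb9 changed less in their transcripts. Psmb8-201, protein coding, held 55.2%, 58.8%, 56.0% and 51.9% of Psmb8 counts in naive 1 to 4, 39.4%, 42.8%, 41.6% and 50.6% in stimulated 1 to 4, and 46.5%, 64.5% and 57.1% in Torin 1, 3 and 4. Its log2 share changed by -0.35 on stimulation (adjusted p = 0.1) and by 0.35 with Torin against stimulated (adjusted p = 0.36). Psmb8-205, a retained-intron form, held 18.6%, 0% and 1.97% in Torin 1, 3 and 4, against 17.2% to 26.7% in stimulated libraries and 13.1% to 14.9% in naive ones. The difference between Torin and stimulated libraries did not pass (limma adjusted p = 0.26), and passed without Torin 1 (0.038). The minor forms Psmb8-203 and Psmb8-207, each at most 1.68% of the gene, had lower shares on stimulation (log2 changes -2.31 and -0.59, adjusted p = 0.037 and 0.026). Psmb8-203 averaged 20.6 CPM of library totals in naive, 0.037 in stimulated and 0.074 in Torin libraries. It reached the required mean of 1 CPM only through the naive libraries. Its stimulated level lay below the prior of 0.5 CPM, so the size of its change depends on that prior. Naive 2 held 0.156%, against 1.52% to 1.68% in the other naive libraries. Psmb8-202, another retained-intron form, had a higher share in Torin than in naive libraries (log2 change 2.09, adjusted p = 0.037).

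Psmb9-204, protein coding, held 82.1%, 85.9%, 85.3% and 86.2% of Psmb9 counts in naive 1 to 4, 88.6%, 91.8%, 88.3% and 88.1% in stimulated 1 to 4, and 93.2%, 90.8% and 89.5% in Torin 1, 3 and 4. Its share did not pass the threshold on stimulation (log2 change 0.07, adjusted p = 0.065), although the naive libraries lay below all others. Psmb9-201, a retained-intron form of 2884 nt, was lower in Torin libraries (3.83% to 4.67%) than in naive ones (7.44% to 9.66%, log2 change -0.95, adjusted p = 0.015). That call ended when the fit held the replicate number as a block (log2 change -1.01, adjusted p = 0.0501), without Torin 1 (-0.90, adjusted p = 0.061) and without Torin 3 (-0.91, adjusted p = 0.058).

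Across the family, 112 transcripts of 32 members could be tested, and 29 changed in share on stimulation, against 16.5% of all transcripts tested. Of 45 retained-intron transcripts, 17 had lower shares (37.8%, against 18.4% of 2267 over all genes) and 2 had higher ones (4.44%, against 7.9%). The 2 were Psmb10-205 and Psmb10-207. Examples of lower shares, chosen after their values were seen, were Psma3-205 (log2 change -2.61, adjusted p = 0.0011), Psmb6-204 (-2.08, adjusted p = 0.00016) and Psmd9-203 (-1.99, adjusted p = 0.00045). Between Torin and stimulated libraries no member transcript passed with limma (8 higher and 2 lower at an unadjusted p under 0.05). Of all transcripts, 0.247% passed there. Against naive libraries, 17 member transcripts changed in Torin libraries, against 6.42% of all transcripts. Of the 45 retained-intron forms, 8 had lower shares (17.8%, against 6.97% over all genes) and 3 had higher ones (6.67%, against 2.73%).

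The standard core rose as a whole on stimulation. All 7 alpha subunit genes passed, with log2 changes of 0.98 to 1.84 and a median of 1.41. These subunits form the gate and the docking surface of the core. Psma3 had the largest rise, from 375, 439.9, 355 and 338 CPM in naive 1 to 4 to 1118, 1569, 1419 and 1289.6 in stimulated 1 to 4. The log2 change was 1.84 (SE 0.16, adjusted p = 1.2e-05), and the groups did not overlap. Among the 4 structural beta genes, which hold the inner rings together, all passed, with log2 changes of 0.42 to 1.27. Psmb2 rose most, from 570.3, 731, 630.0 and 627 CPM in naive 1 to 4 to 1373, 1446, 1769 and 1593 in stimulated 1 to 4 (log2 change 1.27, SE 0.13, adjusted p = 2.6e-05). With library totals alone Psmb1 and Psmb4 lost their calls. Psmb1 rose least (0.42, adjusted p = 0.034). Its call ended without any single naive library or stimulated 2, and with library totals alone its log2 change was -0.08 (adjusted p = 0.60).

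Assembly factors of the core rose with it. Psmg1 to Psmg4, chaperones that help assemble the alpha ring, all passed, with log2 changes of 1.35 to 1.58. Psmg2 rose most, from 48.1, 54.7, 44.2 and 51.6 CPM in naive 1 to 4 to 105, 173, 179 and 137 in stimulated 1 to 4 (log2 change 1.58, SE 0.18, adjusted p = 5.4e-05). Pomp, the maturation protein of the core and not a family member, measured 410.3, 550.3, 399.5 and 401 CPM in naive 1 to 4, against 1170.5, 1223, 1469.8 and 1314 in stimulated 1 to 4. Its log2 change was 1.56 (SE 0.14, adjusted p = 1.7e-05).

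The 19S cap genes also rose under TMM scaling. All 6 ATPase genes, Psmc1 to Psmc6, passed, with log2 changes of 0.85 to 1.61. Psmc4 had the largest, from 103, 89.9, 76.8 and 47.7 CPM in naive 1 to 4 to 278, 235, 210.2 and 244 in stimulated 1 to 4 (log2 change 1.61, SE 0.21, adjusted p = 0.00013). All 11 non-ATPase genes passed, with log2 changes of 0.81 to 1.77. The largest was Psmd12, from 47.2, 36.8, 30.4 and 22.6 CPM in naive 1 to 4 to 124, 126, 104 and 115 in stimulated 1 to 4 (log2 change 1.77, SE 0.21, adjusted p = 6.4e-05). With library totals alone, 8 of these 17 cap genes lost their call: Psmc1, Psmc3, Psmd2, Psmd3, Psmd4, Psmd8, Psmd11 and Psmd13. Per length, the median cap gene measured 19.95 to 51.9 TPM in naive, 43.8 to 64.2 in stimulated and 39.5 to 54.9 in Torin libraries, whereas the median standard core gene measured 230.4 to 392, 433 to 568 and 394 to 457 TPM.

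Regulators and cap chaperones did not move as one. Of the 3 chaperones of the 19S base, Psmd9 passed (from 36.8, 27.7, 35.2 and 19.1 CPM in naive 1 to 4 to 64.2, 43.6, 49.8 and 52.7 in stimulated 1 to 4, log2 change 0.82, adjusted p = 0.0073), with 0.33 and adjusted p of 0.32 on library totals alone. Psmd10 (-0.06, adjusted p = 0.77) and Psmd5 (0.45, adjusted p = 0.075) did not pass. Psmd10 was called lower with library totals alone. Psme3, the nuclear activator PA28 gamma, rose from 99.0, 57.3, 58.2 and 48.6 CPM in naive 1 to 4 to 189, 179, 158 and 174 in stimulated 1 to 4 (log2 change 1.41, SE 0.21, adjusted p = 0.00031).

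Psme1 and Psme2 encode the interferon-inducible activator PA28 alpha and beta. Psme1 measured 410.2, 338, 334 and 225 CPM in naive 1 to 4, against 408, 318, 381 and 354 in stimulated 1 to 4, and the groups overlapped (log2 change 0.16, adjusted p = 0.51). Psme1 overlaps Emc9 on the opposite strand, whose mean count fell from 37668 in naive to 1883 in stimulated libraries, and the sources do not say whether counting used strand. Psme2 passed with a log2 change of 0.62 (adjusted p = 0.0099) and its near-identical copy Psme2b with 0.59 (adjusted p = 0.012). Reads may be divided between these 2 copies, so their separate values are uncertain. Both calls ended with library totals alone, without all libraries of number 1 and without those of number 3. Psme4 (PA200) changed by 0.03 (adjusted p = 0.92). Psmf1 changed by 0.46 (adjusted p = 0.053), and by 0.48 in the fit with a replicate block (adjusted p = 0.032). Psmc3ip rose from 4.22, 3.29, 4.31 and 2.11 CPM in naive 1 to 4 to 5.32, 11.8, 10.9 and 6.13 in stimulated 1 to 4 (log2 change 1.29, adjusted p = 0.0065), and by 0.76 with an adjusted p of 0.074 on library totals alone. Psmc3ip overlaps the more abundant Mlx on the opposite strand. Mean counts of Mlx were 10035.5 in naive and 11712.5 in stimulated libraries, against 1221.5 and 2167 for Psmc3ip. The values of Psmc3ip are therefore uncertain if counting ignored strand.

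With Torin, proteasome genes were mostly a little lower than in stimulated libraries, and few passed the test. With edgeR no member was called higher, as at an unadjusted p under 0.05 and with DESeq2 (5.28% of all genes), and 6 were called lower: Psmb10, Psmb8, Psma2, Psma3, Psmg4 and Psmb5. Of all genes tested, 4.62% passed, 2.32% higher and 2.3% lower. At an unadjusted edgeR p under 0.05, 14 members were lower. Of the 22238 genes tested, 4444 were below that value in either direction. The median log2 change was -0.30 over members and -0.02 over all genes. The sign was negative in 42 of 50 members, and in 35 with library totals alone, where the median of all genes was 0.11. The Torin range lay wholly below the stimulated range for 22 members and wholly above it for 0, against 10.1% and 9.56% of all genes. The count of 6 fell to 2 without stimulated 2, 3 without stimulated 4, 2 without Torin 1, 1 without Torin 3 and 3 without Torin 4. Psmb10 was called in each of these settings. DESeq2 called 10 members lower, including all 6, against 7.04% of all genes.

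Psma2, an alpha subunit gene, measured 1617, 2196, 2076 and 1711 CPM in stimulated 1 to 4 and 1133, 1024 and 1155 in Torin 1, 3 and 4. The groups did not overlap (log2 change -0.78, SE 0.16, adjusted p = 0.023). Psma3, another alpha subunit gene, measured 781, 666 and 914 CPM in Torin 1, 3 and 4, below all stimulated libraries given above (log2 change -0.78, SE 0.17, adjusted p = 0.028). Psmg4, the chaperone partner of Psmg3, measured 439, 442, 609 and 435 CPM in stimulated 1 to 4 and 308, 295 and 241 in Torin 1, 3 and 4. Its log2 change was -0.77 (SE 0.19, adjusted p = 0.049), and -0.72 in the fit with a replicate block (adjusted p = 0.073). The calls of Psma2, Psma3, Psmb5 and Psmg4 all ended without stimulated 2, without Torin 1, without Torin 3 and without all libraries of any 1 number. With edgeR all 17 cap genes stayed short of the threshold, with log2 changes of -0.55 to 0.05, but DESeq2 called Psmd6 and Psmd13 lower and edgeR called Psmd13 lower among genes with a mean of at least 5 CPM. In the Torin comparison, 3 of the 14 standard core genes passed, and all 14 had negative log2 changes, of -0.78 to -0.07, of which Psma1, Psma7 and Psmb1 turned positive with library totals alone.

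**Figure D4:**
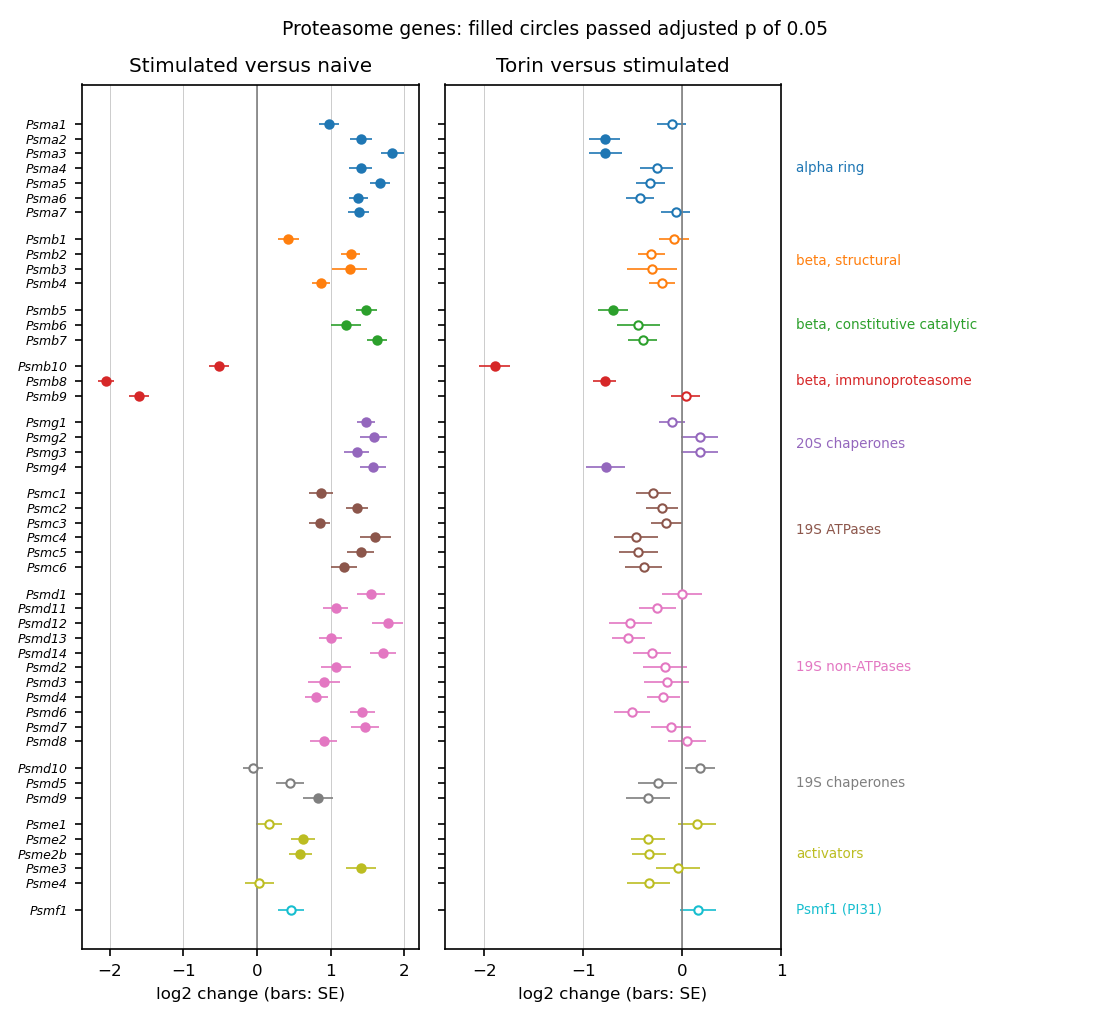
Log2 change of each member by role, with its standard error, for stimulated against naive libraries (left) and Torin against stimulated libraries (right); filled circles passed an adjusted p of 0.05, and Psma8, Psmb11 and Psmc3ip are not drawn. On the left all filled genes lie above 0 except the 3 immunoproteasome genes, and on the right 6 are filled, all below 0.

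Relative to naive libraries, cells given N4 with Torin also had higher levels of most members and lower levels of the 3 immunoproteasome catalytic genes. These values share the naive and the Torin libraries with the comparisons above and are given beside them. Of the members, 36 were higher, 3 were lower (Psmb8, Psmb9 and Psmb10) and 11 did not pass. Of all genes, 32.2% passed, 16.4% higher and 15.8% lower. The median log2 change was 0.81 over members and -0.18 over all genes, and with library totals alone the latter was -0.52 and 21 members were called higher (10.3% of all genes). The ranges of Torin and naive libraries were apart for 38 members higher and 3 lower, against 21.1% and 22.4% of all genes. Psmb8 was 7.12-fold lower (log2 change -2.83, SE 0.13, adjusted p = 5e-06), Psmb10 5.31-fold lower (-2.41, SE 0.16, adjusted p = 2.5e-05) and Psmb9 2.97-fold lower (-1.57, SE 0.15, adjusted p = 5.9e-05).

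The largest rises by role in the Torin libraries over naive ones were those of Psma5 among alpha genes (227, 279, 224 and 193 CPM in naive 1 to 4, 562, 579 and 622 in Torin 1, 3 and 4, log2 change 1.35), Psmb2 (0.96) and Psmb7 (1.23). In the cap they were Psmc2 (119.8, 96.1 and 116 CPM in Torin 1, 3 and 4 over 60.8, 51.8, 47.7 and 38.1 in naive 1 to 4, log2 change 1.16) and Psmd1 (49.3, 52.5 and 56.6 over 23.9, 19.98, 16.2 and 12.6, log2 change 1.54). Psmg2 (1.76), Psme3 (1.37), Psmc3ip (1.40) and Psmf1 (0.62, adjusted p = 0.025) also passed. With library totals alone the log2 change of Psmf1 was 0.26 (adjusted p = 0.44). Psmf1 also lost its call without naive 2 (adjusted p = 0.056), without Torin 1 (0.10) and without all libraries of any 1 number (0.0501 to 0.077). Psmb6 passed at 0.76 (adjusted p = 0.018) and missed the threshold with library totals alone (0.43, adjusted p = 0.059), without Torin 1 (0.053) or Torin 3 (0.079), and without all libraries of number 1 (0.092) or 3 (0.059).

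Among other genes of the ubiquitin and proteasome system, 26 of 27 listed could be matched and tested. On stimulation 12 were higher, 5 lower and 9 did not pass, with a median log2 change of 0.50. Over all genes tested, 19.2% were higher and 20.2% lower. Uchl5, a deubiquitinase of the cap, had a log2 change of 1.49 (adjusted p = 0.00014), and Adrm1, its ubiquitin receptor in the cap, rose from 120.2, 89.8, 82.9 and 69.5 CPM in naive 1 to 4 to 238, 195, 181 and 206 in stimulated 1 to 4 (1.18, adjusted p = 0.00028). Nfe2l1 encodes the factor that raises proteasome genes when proteasome activity is low. It measured 11.4, 9.66, 5.47 and 8.76 CPM in naive 1 to 4, against 13.9, 11.3, 17.1 and 12.5 in stimulated 1 to 4 (log2 change 0.63, adjusted p = 0.051). Nfe2l1 passed with DESeq2 (0.64, adjusted p = 0.023), in a fit of only the 2 groups compared (0.70, adjusted p = 0.041), and without naive 1 (0.029), stimulated 2 (0.049) or Torin 4 (0.045). The largest falls were those of Ngly1, an enzyme that processes the Nfe2l1 protein (-1.39, adjusted p = 0.0036), and Nfe2l2, the factor of the oxidative stress response (-1.20, adjusted p = 0.00052).

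With Torin against stimulated libraries, none of these 26 genes passed with edgeR (1 higher and 4 lower at an unadjusted p under 0.05). Of all genes, 4.62% passed. DESeq2 called 1 higher and 4 lower (5.28% and 7.04% of all genes). Pomp (log2 change -0.51, adjusted p = 0.015) and Adrm1 (-0.51, adjusted p = 0.041) were among the latter. In the Torin libraries against naive ones, 12 were higher, 3 lower and 11 did not pass. Over all genes tested, 16.4% were higher and 15.8% lower. Ubqln4, a shuttle protein that brings substrates to the proteasome, had the largest rise there (26.3, 27.8 and 24.2 CPM in Torin 1, 3 and 4 over 14.5, 7.68, 9.51 and 8.51 in naive 1 to 4, log2 change 1.38, adjusted p = 0.00059). Uchl5 (1.22) also passed, and Nfe2l2 (-1.86) and Fbxo7 (-1.16, adjusted p = 0.014) were lower. Fbxo7, an F-box protein that binds PI31, lost its call without Torin 1 (adjusted p = 0.062) or Torin 4 (0.078), and without all libraries of number 1 (0.12) or 4 (0.096).

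The class I presentation genes, which act on the peptides that proteasomes release, were mostly lower after stimulation. Of 15 listed genes, 9 were lower, 3 higher and 3 did not pass on stimulation, with a median log2 change of -1.02. Over all genes tested, 20.2% were lower and 19.2% higher. Tap1 and Tap2 encode the peptide transporter of the endoplasmic reticulum and lie next to Psmb9 and Psmb8 in the annotation, in the order Psmb9, Tap1, Psmb8, Tap2. Tap1 measured 76.4, 68.8, 62.9 and 56.5 CPM in naive 1 to 4, 50.7, 44.8, 33.1 and 43.5 in stimulated 1 to 4 and 42.1, 41.1 and 49.5 in Torin 1, 3 and 4. Its log2 change on stimulation was -0.62 (SE 0.16, adjusted p = 0.0081). Tap1 overlaps Psmb9 on the opposite strand, so reads of these 2 genes cannot be told apart in the overlap if counting ignored strand.

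Tap2 measured 278, 171, 153 and 188 CPM in naive 1 to 4, against 66.4, 45.0, 33.0 and 46.0 in stimulated 1 to 4 (log2 change -2.05, adjusted p = 8.7e-05). Tapbp, which links the transporter to class I molecules, measured 405, 286, 216 and 196 CPM and 71.1, 74.0, 28.3 and 51.6 in the same libraries (log2 change -2.29, adjusted p = 0.00019). Naive and stimulated libraries did not overlap for either gene. The 3 that rose were the chaperone Canx (0.97, adjusted p = 0.00029), the trimming peptidase Erap1 (0.76, adjusted p = 0.02) and the chaperone Calr (0.61, adjusted p = 0.011). The 9 lower genes include H2-K1 (log2 change -1.25, adjusted p = 0.0013) and H2-D1 (-1.16, adjusted p = 0.00091). These are related class I heavy chain genes whose separate counts are uncertain. With library totals alone the log2 change of Erap1 was 0.26 (adjusted p = 0.50). Erap1 also lost its call without naive 2, naive 3, naive 4 or stimulated 2 (adjusted p of 0.051 to 0.055) and without all libraries of number 2 (0.12), 3 (0.064) or 4 (0.067).

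Irf1, an interferon-induced activator of Psmb8, Psmb9 and Tap1, measured 96.7, 97.0, 73.8 and 80.5 CPM in naive 1 to 4, 35.3, 37.0, 23.9 and 33.4 in stimulated 1 to 4 and 38.4, 29.3 and 32.3 in Torin 1, 3 and 4. It fell on stimulation (log2 change -1.43, SE 0.17, adjusted p = 7.6e-05), and Torin and stimulated libraries overlapped (0.04, adjusted p = 0.95). With Torin, 1 of the 15 genes passed with edgeR (3 higher and 0 lower at an unadjusted p under 0.05), against 4.62% of all genes. DESeq2 called 2 higher, against 5.28% of all genes. Irf2, a related factor that competes for Irf1 sites, measured 44.8, 38.7, 44.9 and 38.8 CPM in naive 1 to 4, 14.8, 9.53, 11.9 and 14.4 in stimulated 1 to 4 and 32.9, 36.3 and 33.0 in Torin 1, 3 and 4. It was 2.69-fold higher with Torin than without (log2 change 1.43, SE 0.16, adjusted p = 0.0037), in 3 of 3 numbers. The call ended without all libraries of number 3 (1.35, adjusted p = 0.076). Against naive libraries, 8 of the 15 genes were lower and 2 higher in the Torin group (15.8% and 16.4% of all genes). Among them Tap2 (-2.17) and Tapbp (-2.43) were lower, and Canx (0.99) and Calr (0.66) higher. Calr lost its call with library totals alone (0.32, adjusted p = 0.28) and without all libraries of number 4 (0.62, adjusted p = 0.078). Tap1 was lower there too (-0.58, adjusted p = 0.022), a call that ended without any single Torin library (adjusted p of 0.055 to 0.090) or all libraries of any 1 number (0.061 to 0.13).

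**Figure D5:**
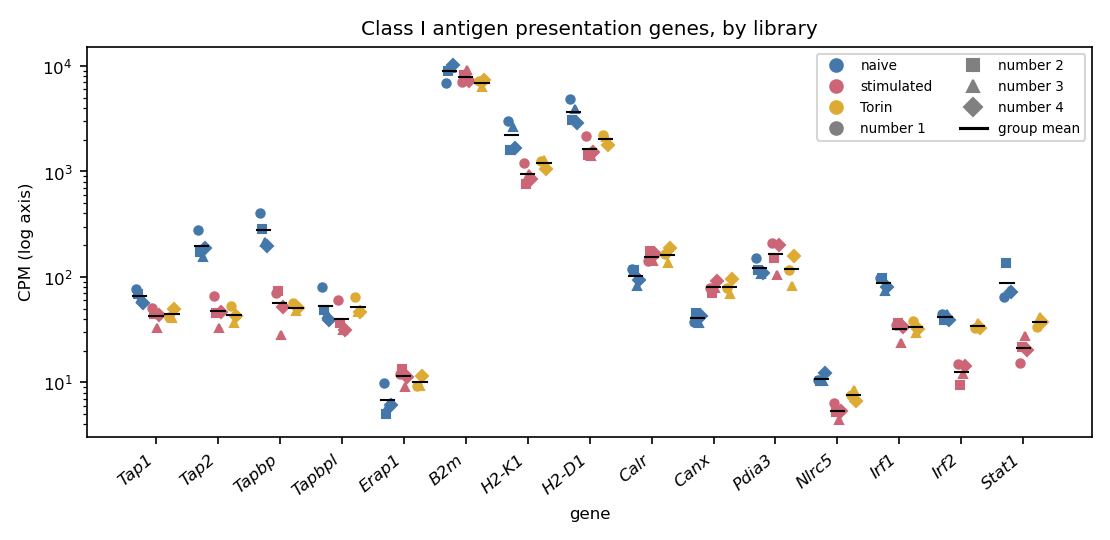
CPM (log axis) of 15 class I presentation genes in the naive, stimulated and Torin libraries; symbols give the library number and lines the group mean. Tap2 and Tapbp lay lower in all stimulated and Torin libraries than in naive ones, and Irf2 was lowest in stimulated libraries (9.53 to 14.8 CPM, against 32.9 to 36.3 with Torin).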

How the data were processed

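RNA from OT-I CD8+ T cells in 3 groups (naive, stimulated, stimulated with Torin) was sequenced as 11 libraries after amplification from poly(A) RNA, per the labels' protocols. The authors deposited estimated counts per gene and per transcript. The submitters' processing notes name StringTie 2.1.0, DESeq2 1.30.1, R 4.0.5, STAR 2.7.1a and SAMtools 1.9 without stating roles, and the build mm39, and whether counting used strand is not given in the sources used here. All values in the deposited expected count tables were whole, so nothing was rounded. The columns named Control were taken as the stimulated libraries, the 1 group whose labels are not naive or Torin. Symbols, types, lengths and exons came from GENCODE M21 (GRCm38) through unversioned identifiers, which matched 94.0% of 55414 genes and 97.1% of 142435 transcripts. As the tables use another build, no table coordinates are given.

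The members, lists and tests were chosen with earlier results of these data known. Genes with enough counts (filterByExpr, minimum count 10) were fitted over all 3 groups with edgeR 4.0.16 (TMM scaling, quasi-likelihood test, R 4.3.3), and p-values were adjusted over 22238 genes. A transcript's share of its gene (log2, prior of 0.5 CPM of library totals, mean of at least 1 CPM) was fitted with limma 3.58.1 over all transcripts. Catalytic pair ratios used exact 2-sided permutation tests (SciPy 1.17.1). Totals were 241865667 to 405884097 estimated counts, and since the sources used here do not say how these were made from reads, no counting error is inferred from them. The common coefficient of variation between libraries was 0.79. Scripts were tested on simulated data. Named genes were the 6 catalytic genes, the largest rise and fall past the threshold by role, members called against the majority, and in each list the 2 largest rises and falls and 5 fixed genes. Values of other genes and transcripts named in the text were chosen after they were seen, or stand for a whole role. Alternatives were DESeq2 1.42.0, library totals, other filters, priors and transcript sets, a replicate block, single libraries or all libraries of a number left out. Same-numbered libraries deviated together with correlations of 0.15 to 0.29 (stimulated and naive), 0.11 to 0.31 (Torin and stimulated) and 0.08 to 0.28 (Torin and naive), against at most 0.07 for other numbers. Libraries of the same number were thus more alike in all 3 comparisons, by little for number 1 in Torin against naive (0.08 against 0.07). The main fits and the permutation tests did not use the numbers, so their p-values ignore any such pairing. The replicate block was run only as an alternative. The labels do not say what a number marks.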

Additional observations from a re-analysis of the deposited data

Results flagged for a closer look

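In 96 groups of 4 libraries (the naive and stimulated values of named genes, catalytic pair ratios and immunoproteasome transcript shares), 6 held 1 library whose gap to the nearest other, as a share of the group's range, exceeded Dixon's 95% critical value, and chance gives about 1 in 20. Pomp measured 550.3 CPM in naive 2 against 399.5 to 410.3 in the other naive libraries. Psmg4 measured 609 CPM in stimulated 3 against 435 to 442 in the others, and its call between Torin and stimulated libraries ended without stimulated 3 (log2 change -0.69, adjusted p = 0.061). Psmb8-205 held 14.9% of its gene in naive 4 against 13.1% to 13.3%, and 17.2% in stimulated 4 against 25.5% to 26.7%. Psmb9-204 held 91.8% in stimulated 2 against 88.1% to 88.6%. Psmb10-205 held 0.607% in naive 1 against 0.322% to 0.344%. Naive 2 and stimulated 2 had the high granulocyte marker sums, and naive 4 and stimulated 4 the high B cell marker sums, whose part in these values was not tested.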

How the results depend on the processing

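Psmb8 and Psmb9 were lower in stimulated than in naive libraries in every setting run, with log2 changes of -2.53 to -1.94 and -2.07 to -1.41, and Psmb10 was lower with Torin than in stimulated libraries in every setting (-1.95 to -1.74). With library totals alone, 26 members were called higher on stimulation and 21 with Torin against naive libraries. Members called lower with Torin against stimulated libraries numbered 10 with DESeq2, 3 without a filter, 1 to 6 with 1 library left out, and 1, 2, 1 and 1 without all libraries of number 1, 2, 3 and 4. The cause of these shifts was not tested. Fits with libraries left out also had fewer libraries. With the replicate number as a block, 41, 5 and 36 members were called in the main direction of the comparisons of stimulated with naive, Torin with stimulated and Torin with naive libraries. The block changed the calls of Psmf1, Psmg4 and Psmb9-201 given above and no other named call. As a block for the pair ratios, chosen after seeing the data, the smallest possible exact p was 0.125 or 0.25.

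The log2 ratio of Psmb8 to Psmb5 between Torin and stimulated libraries was 0.26 with protein-coding transcripts alone. The share of Psmb9-204 passed with transcripts of at least 5 CPM, on stimulation (0.067) and with Torin against naive (0.092). As a difference in percent with an exact permutation test, the share of Psmb10-201 differed by -48.0 points on stimulation (exact p = 0.0286, adjusted p = 0.096). With Torin against naive it differed by -48.4 points (exact p = 0.0571, adjusted p = 0.10). These exact p-values are the smallest these numbers of libraries allow.

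Near-zero differences changed sign. Between Torin and stimulated libraries, Psmb10-201 gave -0.35 points, -0.0064 with a prior of 0.1 CPM, -0.0064 with at least 5 CPM and -0.13 to 0.090 with 1 library left out. Psmb8-201 in Torin against naive libraries gave -0.10 to 0.13. Psmb10-207 gave -0.045 with the smaller prior, -0.043 with the block and -0.40 points, and Psmb10-205 gave -0.0038 with the block and -0.11 points. With 1 library left out these 2 gave -0.11 to 0.15 and -0.10 to 0.15, Irf1 -0.12 to 0.13, Psmb9 -0.035 to 0.096 and Tap1 -0.11 to 0.13. Without all libraries of a number, Irf1 gave -0.028 (number 1), Psmb9 -0.00015 (number 1), and Tap1 -0.017 (number 3) and -0.022 (number 4). Of the other values for single genes and transcripts, 883 with 1 library left out and 673 in other settings kept direction and side of the threshold, and 35 and 54 lost their call.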
